A study of Rattus norvegicus with 30 samples.

Results

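Col1a1, Col1a2, Col3a1, Fn1, Timp1 and Mmp2, 6 genes of the extracellular matrix that fills a scar, were followed in the rat brain 3 months after traumatic brain injury (TBI). They were chosen by their Ensembl identifiers (ENSRNOG00000003897, ENSRNOG00000011292, ENSRNOG00000003357, ENSRNOG00000014288, ENSRNOG00000010208 and ENSRNOG00000016695, in the order of the names above) from the 26404 genes of each table of read counts. The identifiers and their symbols were given with the rule, since the tables hold no symbols, and all 6 were found and passed the filter on low counts in every area. The 10 adult male Sprague-Dawley rats carried no transgene or other genetic change. All had the same anaesthesia (a mixture with sodium pentobarbital, chloral hydrate, magnesium sulphate, propylene glycol and ethanol), a left parietal craniectomy with the dura intact, and a saline-filled cap over it. In rats 6 to 10 a lateral fluid-percussion injury (lateral FPI) was then induced through the cap, and rats 1 to 5 were sham-operated controls without the impact, so each control also carries the surgery. Poly-A RNA was sequenced from the perilesional cortex, the ipsilateral thalamus and the ipsilateral hippocampus of each rat, which gave 30 libraries, 5 per area and group. The hippocampal samples are called dorsal hippocampus in the labels, and the piece dissected was the dentate gyrus with part of CA3. Rats are the replicates, so the errors below hold the spread between animals.

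After a brain injury that tears vessels and meninges, fibroblast-like cells of the vessel wall and meninges lay down a core of fibrous matrix, and reactive astrocytes line it. Type I collagen is a rope of 2 chains encoded by Col1a1 and 1 encoded by Col1a2, and type III collagen, encoded by Col3a1, is woven into the same fibrils. Fibronectin (Fn1) is the glycoprotein on which collagen fibrils assemble and to which cells attach through integrins. Matrix metalloproteinase 2 (Mmp2) is a secreted gelatinase that cuts denatured collagen and basement membrane. Tissue inhibitor of metalloproteinases 1 (Timp1) binds and blocks such proteases and is made by reactive astrocytes and other cells in injured tissue.

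The sequences just upstream of Timp1, the gene with the strongest response below, and of Col1a2, a fibril gene, are shown. These are the 2 of the 6 genes with an entry in the promoter table used. The sequences are from RefSeq for the rat build GRCr8, and not from the build to which the reads were aligned. Each line gives 100 bases, 5′ to 3′ on the strand of the gene, with matches to the motifs searched in capitals.
Timp1, chrX:3771195-3771294, minus strand, bases -172 to -73 from the annotated start: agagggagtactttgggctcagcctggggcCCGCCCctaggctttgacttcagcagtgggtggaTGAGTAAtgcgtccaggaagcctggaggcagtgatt
Col1a2, chr4:33518307-33518406, plus strand, bases -250 to -151: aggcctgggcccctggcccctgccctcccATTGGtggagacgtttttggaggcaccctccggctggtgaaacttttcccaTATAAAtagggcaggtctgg
The motifs were searched on both strands of the 250 bases before the start. Timp1 held TGAGTAA, a form of the AP-1 site, at -108 to -102, which 2.38% of the 33469 promoters of the table hold. These letters were searched because they are the form known from the Timp1 promoter, so the match was given in advance and the share says nothing about it. It also held GGGCGG, the GC box, on the other strand at -142 to -137, a motif found in 30.5% of them. Col1a2 held TATAAA, the letters of the TATA box, at -170 to -165 (12.9% of promoters) and CCAAT on the other strand at -221 to -217 (34% of promoters). Whether the TATAAA letters serve the annotated start was not tested. The common AP-1 letters TGANTCA, found in 6.34% of promoters, were in neither window. These matches are descriptions of letters and no binding was measured.

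Libraries held between 21992859 and 31799879 counted reads, and the level of a gene is given as CPM (counts scaled to the size of the library) after TMM scaling within an area. For each gene the text gives the 5 sham and the 5 TBI values in the order of the rats, and then the log2 fold change of TBI over sham from edgeR with its standard error (SE) and the p-value adjusted over all genes tested in that area. A gene is called when that adjusted p is under 0.05. As tissue was measured in bulk, more cells of a type and more RNA per cell cannot be told apart. In the hippocampus the 10 most abundant genes took 44.1% and 40.9% of the reads of sham rats 4 and 5, against 9.95% to 16.4% in the other 8 libraries, and the study set aside a pair of hippocampal sham libraries that it does not name. In the cortex this share was 20.3% to 29.6% in sham and 14.1% to 23.8% in TBI rats, and in the thalamus 6.32% to 9.13% and 7.53% to 10.5%. Whether this bears on the responses was not tested. Of 2 genes that part the rats alike in cortex and thalamus, 1 parts rat 3 from rat 8, and at this gene the pair is exchanged in the hippocampal libraries. The other gene puts both rats on the same side and cannot show an exchange, so the hippocampal responses are also given without these rats. In the thalamus, sham rat 1 had the highest collagen levels of all 10 libraries.

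In the perilesional cortex Timp1 rose, and all 6 genes had a log2 fold change above 0 (48.3% of all genes). The median log2 fold change of the 6 genes was 1.14, against -0.01 over all 17185 genes tested. Timp1 was the 1 of 6 called, where 14.2% of all genes were called higher. At an unadjusted p under 0.05 there were 4 of 6 (19.8% of all genes, higher), and 5 of 6 had a log2 fold change above 1 (4.36% of all genes). The TBI and sham ranges overlapped for each of the 6, where all TBI libraries lay above all sham libraries for 10.2% of genes.

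Timp1, the protease inhibitor, was at 2.83, 4.21, 2.3, 1.38 and 2.42 CPM in the sham cortex and at 10.6, 8.04, 7.33, 5.61 and 3.26 CPM after TBI. Only TBI rat 10 fell inside the sham range. The means were 2.63 ± 1.03 and 6.98 ± 2.75 CPM (SD, n = 5 each), a fitted log2 fold change of 1.41 (SE 0.33, 95% confidence interval 0.70 to 2.13, adjusted p = 0.00846 by edgeR).

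The collagen genes followed with the same rats on top but a wider spread. Col3a1, the type III chain, was at 8.08, 22.8, 12.1, 9.49 and 23.1 CPM in sham rats and at 66.0, 65.6, 26.4, 44.2 and 15.5 CPM in TBI rats. Its log2 fold change was 1.52 (SE 0.49), the largest of the 6 in cortex, with an adjusted p of 0.0520 by edgeR, just over the threshold. Rats 6, 7, 8 and 9 were above every sham rat, and TBI rat 10 was below sham rats 2 and 5. Col1a1, the first type I chain, was at 17.8, 49.4, 21.0, 20.8 and 40.9 CPM in sham rats and at 77.2, 109, 53.8, 74.7 and 27.1 CPM in TBI rats. This is a log2 fold change of 1.19 (SE 0.43, edgeR adjusted p = 0.0773), again with rat 10 alone inside the sham range. Col1a2, its partner chain, was at 30.5, 63.4, 29.2, 26.2 and 63.8 CPM in sham rats and at 112, 142, 66.6, 98.3 and 27.3 CPM in TBI rats. Its log2 fold change of 1.06 (SE 0.47, edgeR adjusted p = 0.135) had an interval from -0.01 to 2.14. Sham rats 2 and 5 held the 2 highest sham levels of all 3 collagens.

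Fn1 had the same 4 rats on top as the collagens, and Mmp2 did not. Fn1, the adhesive scaffold, varied little among sham rats (35.9, 40.8, 33.7, 34.4 and 34.6 CPM) and was at 51.5, 60.6, 45.5, 42.4 and 24.2 CPM after TBI. Its TBI level was thus above the sham range in 4 rats and below it in rat 10, and the log2 fold change was 0.32 (SE 0.19, edgeR adjusted p = 0.236). Mmp2, the gelatinase, was at 6.10, 3.21, 6.07, 2.91 and 3.30 CPM in sham rats and at 17.6, 6.73, 5.72, 10.3 and 5.16 CPM in TBI rats. Rats 6, 7 and 9 were above the sham range and rats 8 and 10 inside it, for a log2 fold change of 1.09 (SE 0.39, edgeR adjusted p = 0.0675).

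**Figure D1:**
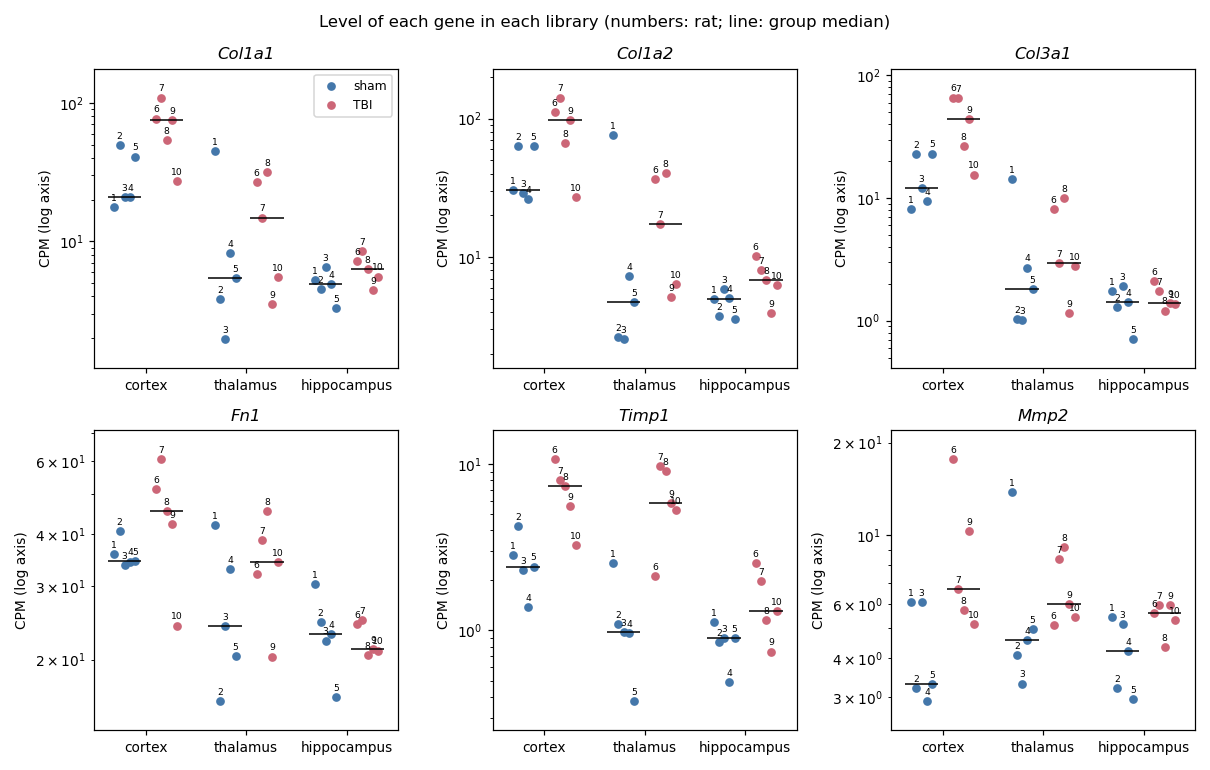
Level of each gene (CPM, log axis) in each of the 30 libraries by brain area, with sham rats in blue, TBI rats in red, the rat's number above each point and a line at the group median. In cortex rats 6, 7, 8 and 9 hold the 4 highest levels of Col1a1, Col1a2, Col3a1, Fn1 and Timp1, and in thalamus sham rat 1 holds the highest level of the 3 collagens.

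Rats 6, 7, 8 and 9 thus held the 4 highest cortical levels of 5 of the 6 genes, all but Mmp2, for which sham rat 1 was among the 4. Without rat 10 all 6 genes were called higher, against 14.2% of all genes in that fit. Rat 10 was the lowest TBI rat for all 6 genes, so these calls rest on the choice of rat and are no separate support. Rat 10 had been the 1 TBI rat inside or below the sham range for all but Mmp2, so the ranges of the other 5 were then apart by this choice of rat (12.6% of all genes). The log2 fold changes were then 1.39 for Col1a1, 1.29 for Col1a2, 1.74 for Col3a1, 0.48 for Fn1, 1.60 for Timp1 and 1.24 for Mmp2. The edgeR adjusted p-values were 0.0263, 0.0325, 0.0197, 0.00447, 0.000828 and 0.0381 in the same order. No other rat left out gave a second call. The choice of tool moved the count as well. DESeq2, the tool the study used, called 4 of 6, with adjusted p-values of 0.0224 for Col1a1, 0.00878 for Col3a1, 2.08e-05 for Timp1 and 0.0351 for Mmp2, and 0.0747 for Col1a2. Limma with library weights called the same 4 genes, and 1 edgeR fit over all areas called Timp1 and Mmp2. Over all genes and both directions 4436 were called in the cortex by edgeR, 4933 by DESeq2, 5217 (30.4%) by limma and 3594 (19.9%) in the fit over all areas. The exact two-sided permutation test over the rats, of which 18 were run and which cannot give a p below 0.00794 with 5 against 5, gave 0.0159 for Timp1, 0.0317 for Col1a1 and for Col3a1, 0.0556 for Mmp2, 0.103 for Col1a2 and 0.286 for Fn1, unadjusted.

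In the thalamus Timp1 rose by a log2 fold change of 2.40, the largest among the 6 genes in any area, and the other 5 genes did not pass the test. Timp1 was again the 1 of 6 called, where 3.77% of the 16605 genes tested were called higher, and ranked 14 among them by log2 fold change. It was the 1 of 6 at an unadjusted p under 0.05 (12.6% of all genes, higher), and no gene of the 6 had ranges apart (2.75% of all genes). All 6 had a log2 fold change above 0 (49.8% of all genes) and 1 of 6 had one above 1 (2.23% of all genes). The median of the 6 was 0.29, against -0.00 over all genes.

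Timp1 was at 2.53, 1.10, 0.977, 0.968 and 0.376 CPM in the sham thalamus, which are 78, 30, 23, 25 and 9 reads, and at 2.13, 9.66, 9.07, 5.85 and 5.27 CPM after TBI, from 68, 316, 205, 127 and 120 reads. Rats 7, 8, 9 and 10 were above every sham rat, and rat 6 was below sham rat 1 alone. The means were 1.19 ± 0.798 and 6.39 ± 3.07 CPM (SD, n = 5 each), and the log2 fold change was 2.40 (SE 0.46, interval 1.41 to 3.39, edgeR adjusted p = 0.0217, exact permutation p = 0.0159). DESeq2 gave it an adjusted p of 1.05e-05. The edgeR call was lost without rat 3, 5, 7, 8 or 10 (adjusted p = 0.0592, 0.0661, 0.0668, 0.0666 and 0.0519), while the log2 fold change stayed between 2.18 and 2.89 over all 10 rats left out in turn. Calls fell over the whole area in these fits, from 934 genes with all rats to 0 (0%) without rat 3, 5, 7 or 8 and 67 (0.4%) without rat 10. Timp1 lies inside Syn1, a gene of synaptic vesicles that runs on the opposite strand (RefSeq, GRCr8). Whether reads were assigned by strand is not given in the sources used here, so reads from Syn1 could not be told apart from those of Timp1.

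The thalamic collagens showed the widest spread between rats. Col1a1 was at 44.9, 3.80, 1.95, 8.17 and 5.43 CPM in sham rats and at 26.6, 14.8, 31.5, 3.50 and 5.53 CPM in TBI rats. Col1a2 was at 76.0, 2.63, 2.55, 7.28 and 4.77 CPM in sham rats and at 36.8, 17.4, 40.4, 5.11 and 6.36 CPM in TBI rats. Col3a1 was at 14.4, 1.02, 1.02, 2.71 and 1.80 CPM in sham rats and at 8.16, 2.93, 9.96, 1.15 and 2.81 CPM in TBI rats. For all 3, sham rat 1 was the highest library and rats 6, 7 and 8 came next, while TBI rats 9 and 10 lay in or near the range of sham rats 2 to 5. The biological coefficient of variation of the 3 genes was above that of 99.7% of all genes or more. Their log2 fold changes were 0.35 (SE 0.85), 0.18 (SE 1.0) and 0.24 (SE 0.78), with edgeR adjusted p-values of 0.841, 0.932 and 0.881. The interval for Col1a2 ran from -2.02 to 2.39, so neither a rise nor a fall of 4-fold lay outside it.

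Fn1 was at 42.1, 15.9, 24.1, 33.0 and 20.4 CPM in the sham thalamus and at 32.1, 38.8, 45.5, 20.4 and 34.3 CPM after TBI, with a log2 fold change of 0.33 (SE 0.26, edgeR adjusted p = 0.459). Mmp2 was at 13.8, 4.09, 3.31, 4.57 and 4.97 CPM in sham rats and at 5.13, 8.40, 9.20, 5.99 and 5.44 CPM in TBI rats (log2 fold change 0.14, SE 0.35, edgeR adjusted p = 0.840). Apart from sham rat 1, every TBI rat was above every sham rat for Mmp2. Sham rat 1 was also the highest sham rat for Fn1, below TBI rat 8 alone.

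Without sham rat 1, which held the highest thalamic collagen and Mmp2 levels, 2 of 6 genes were called higher, against 3.31% of all genes in that fit. Rat 1 was the highest sham rat for all 6 genes, so these calls also rest on the choice of rat. Col1a2 then had a log2 fold change of 2.31 (SE 0.60, edgeR adjusted p = 0.0478) and Timp1 one of 2.89 (SE 0.44, adjusted p = 0.0121). Col1a1 was at 1.77 (adjusted p = 0.101), Col3a1 at 1.61 (adjusted p = 0.108), Mmp2 at 0.69 (adjusted p = 0.0882) and Fn1 at 0.55 (adjusted p = 0.195) by edgeR. The ranges of Timp1 and Mmp2, for which rat 1 had been the 1 sham rat to overlap, were then apart by this choice of rat (4.71% of all genes). With rat 6 left out as well, a setting chosen after seeing the data, Mmp2 was called as well, at 0.78 (edgeR adjusted p = 0.0355), beside Col1a2 at 2.02 and Timp1 at 3.12. In that fit 2089 genes (12.6%) were called in either direction, against 934 with all rats, so calls rose over the whole area. The cause of the high levels in rat 1 was not tested.

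**Figure D2:**
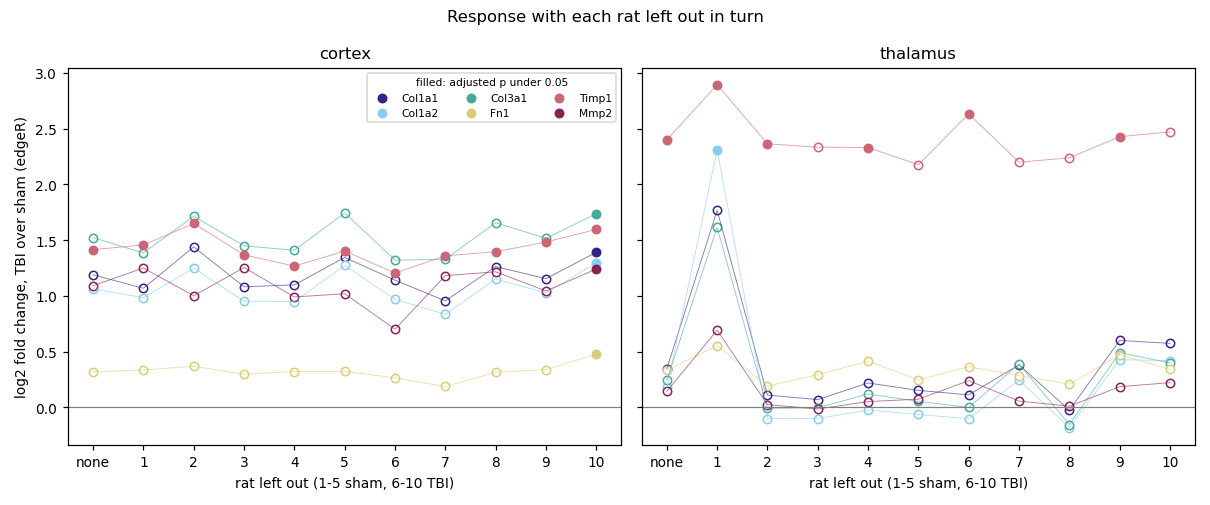
Log2 fold change of TBI over sham from edgeR (vertical axis) with no rat or each rat in turn left out (horizontal axis), for the 6 genes in cortex and thalamus. Filled points have an adjusted p under 0.05. In cortex all 6 genes are filled without rat 10, and in thalamus the collagens move from near 0 to between 1.61 and 2.31 without rat 1.

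In the hippocampus none of the 6 genes was called by edgeR, and none of the 16963 genes tested was called in either direction (0%). At an unadjusted p under 0.05 there were 3 of 6, Timp1, Col1a2 and Mmp2 (5.22% of all genes, higher). DESeq2 gave no adjusted p to any of the 6, since its filter on mean counts removed them, while it called 46 genes over the whole area. Limma with library weights called 0. Of the 6 genes, 5 had a log2 fold change above 0 (46.9% of all genes) and 0 had one above 1 (0.295% of all genes), and none had ranges apart (0.519% of all genes). The median log2 fold change was 0.36, against -0.01 over all genes.

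Timp1 was at 1.12, 0.855, 0.906, 0.493 and 0.898 CPM in the sham hippocampus, from 35, 23, 27, 7 and 14 reads, and at 2.55, 1.97, 1.15, 0.747 and 1.31 CPM after TBI, from 85, 72, 38, 23 and 49 reads. All TBI rats but rat 9 were above the highest sham rat, though rat 8 was so by little. The log2 fold change was 0.81 (SE 0.30, interval 0.17 to 1.45, edgeR unadjusted p = 0.0162, adjusted p = 0.505). Col1a2 was at 5.01, 3.75, 5.87, 5.07 and 3.59 CPM in sham rats and at 10.2, 8.07, 6.83, 3.93 and 6.25 CPM in TBI rats (log2 fold change 0.59, SE 0.22, edgeR adjusted p = 0.505). Rat 9 was again the 1 TBI rat inside the sham range. Mmp2 was at 5.46, 3.20, 5.16, 4.22 and 2.95 CPM in sham rats and at 5.61, 5.97, 4.35, 5.97 and 5.31 CPM in TBI rats (log2 fold change 0.35, SE 0.16, edgeR adjusted p = 0.582). Here TBI rats 8 and 10 were inside the sham range.

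The other 3 genes did not pass the unadjusted threshold in edgeR. Col1a1 ranged from 3.27 to 6.51 CPM in sham rats and from 4.45 to 8.46 CPM in TBI rats, with a log2 fold change of 0.37 (SE 0.18, edgeR adjusted p = 0.599). Col3a1 was between 0.706 and 1.91 CPM in sham rats and between 1.21 and 2.10 CPM in TBI rats (0.11, SE 0.23, adjusted p = 0.932 by edgeR). Fn1 was at 16.2 to 30.3 CPM in sham rats and at 20.5 to 25 CPM in TBI rats, and its log2 fold change of -0.06 (SE 0.13, edgeR adjusted p = 0.920) had an interval from -0.33 to 0.20. Without rats 3 and 8 there were 0 of 6 called, while 263 genes (1.55%) were called over the whole area in either direction, with log2 fold changes of 0.91 for Timp1, 0.71 for Col1a2, 0.51 for both Mmp2 and Col1a1, 0.32 for Col3a1 and -0.05 for Fn1. No pair of sham rats left out gave a call, sham rats 4 and 5 included.

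**Figure D3:**
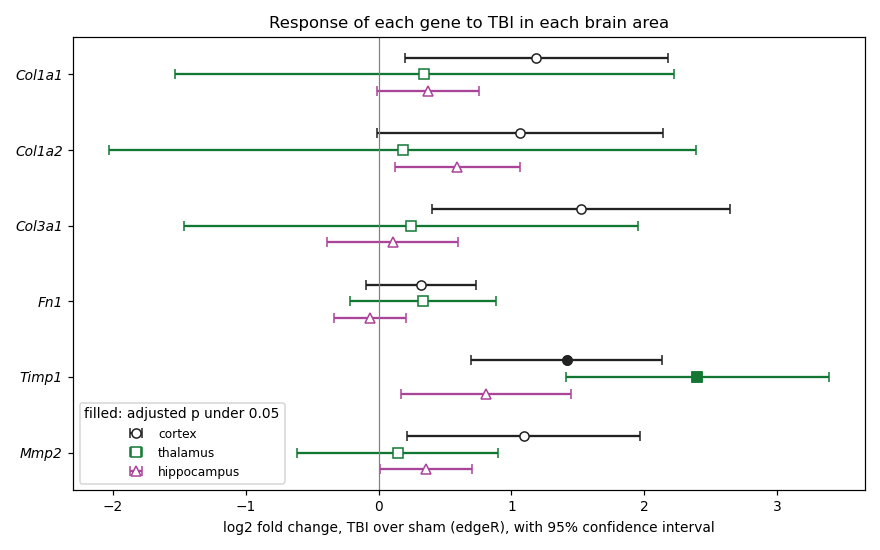
Log2 fold change of TBI over sham from edgeR with its 95% confidence interval (horizontal axis) for each gene in each area, 5 rats per group, with filled markers for an adjusted p under 0.05. Timp1 in cortex (1.41) and in thalamus (2.40) are the filled markers, and the thalamic collagens have the widest intervals.

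A term for area by injury was fitted to ask whether a gene responded differently in different areas, and 0 of 6 genes passed in any of the 3 pairs of areas by edgeR. All genes passed at rates of 0.44% for cortex and thalamus, 3.04% for cortex and hippocampus and 0% for thalamus and hippocampus. At an unadjusted p under 0.05 there was 1 of 6 in each pair with the hippocampus and 0 in the pair of cortex and thalamus, against 18.9%, 13.4% and 9.46% of all genes for cortex and hippocampus, thalamus and hippocampus, and cortex and thalamus. The response of Col3a1 was lower in hippocampus than in cortex by a log2 difference of -1.41 (SE 0.64, edgeR adjusted p = 0.243). The count called of the 6 genes was also 0 in both pairs with the hippocampus when rats 3 and 8 were left out. For Timp1 the response in hippocampus differed from that in thalamus by -1.54 (SE 0.59, edgeR adjusted p = 0.274), and this passed when rat 6 was left out (-2.04, adjusted p = 0.0296), the 1 call with a rat left out, in a fit where 849 genes (4.81%) were called against 0 with all rats. The thalamic response of Timp1 was above the cortical one by 0.93 (SE 0.58, edgeR adjusted p = 0.705). For the collagens the difference between the thalamic and cortical responses had a wide error and no fixed direction, as for Col1a2 with -0.91 (SE 1.19), 0.22 with the rat as a block, and 1.27 without rat 1.

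The level of the genes in tissue without the impact was compared between areas in the sham rats, which all had the craniectomy. Whether the surgery changed the cortical levels was not tested. For the thalamus the study's methods name another instrument and longer reads than the labels do, so area and sequencing cannot be told apart. Against cortex, 5 of 6 genes were lower in the hippocampus (25.5% of all genes), by log2 differences of -3.25 for Col3a1, -3.07 for Col1a2, -2.48 for Col1a1, -1.45 for Timp1 and -0.50 for Fn1. Mmp2 differed by 0.10 (SE 0.24, edgeR adjusted p = 0.750). The count was 5 without sham rat 3 as well. Against cortex, 3 of 6 were lower in the thalamus (34.6% of all genes), Col3a1 by -2.07 (edgeR adjusted p = 0.0321), Timp1 by -1.35 (adjusted p = 0.0075) and Fn1 by -0.64 (adjusted p = 0.0117). Col1a1 at -1.46 (adjusted p = 0.131), Col1a2 at -1.44 (adjusted p = 0.210) and Mmp2 at 0.29 (adjusted p = 0.498) did not pass in edgeR. Between hippocampus and thalamus 0 of 6 passed in edgeR, at the adjusted or the unadjusted threshold, and 0 in DESeq2, which gave Col1a2 no adjusted p, where 32.9% of all genes were higher and 33.2% lower in hippocampus.

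With all sham rats the order of Col3a1, Timp1 and Fn1 was cortex first, for Col3a1 with a call against thalamus that single rats decide, with thalamus and hippocampus as neighbours that did not differ beyond their spread. For Col1a1 and Col1a2 cortex was above hippocampus, and thalamus did not differ from either beyond the spread. Its place rested on rat 1, since with that rat left out of both areas hippocampus was above thalamus by 0.32 for Col1a1 and 0.41 for Col1a2, again without passing the test. No order of areas could be given for Mmp2. With sham rat 1 left out of both areas 5 of 6 genes were lower in thalamus than in cortex, with Col1a1 at -2.98, Col1a2 at -3.62 and Col3a1 at -3.57. In that fit 66.9% of all genes were called in either direction, and the share lower alone was not computed. With all sham rats 34.6% of all genes were lower in thalamus. Without sham rat 2, 3, 4 or 5 the call of Col3a1 between cortex and thalamus was lost (edgeR adjusted p = 0.122, 0.0652, 0.0870 and 0.127), while its log2 difference stayed between -3.57 and -1.63 over the 5 rats left out in turn.

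Within a library, the ratio of reads of 2 genes does not depend on scaling. The ratio of inhibitor to protease had the groups apart in the thalamus alone, and no test of the ratios was run. Timp1 had 0.183, 0.268, 0.295, 0.212 and 0.0756 reads for each read of Mmp2 in the sham thalamus and 0.415, 1.15, 0.986, 0.977 and 0.968 after TBI. Every TBI rat was above every sham rat, including rat 1, in which both genes were high. How often other pairs of genes part the groups was not computed. Timp1 alone was already called in the thalamus, so the ratio is no separate support. In cortex the ratio ranged from 0.379 to 1.31 in sham rats and from 0.544 to 1.28 in TBI rats, and sham rat 2 was the highest. In hippocampus it ranged from 0.117 to 0.304 and from 0.125 to 0.455. The other ratios overlapped between groups in every area. In cortex the median of Col1a1 to Fn1 was 0.622 in sham and 1.5 in TBI rats, and 3 of the 5 TBI rats were above every sham rat, while that of Col3a1 to Col1a1 was 0.462 in sham and 0.592 in TBI rats. These ratios compare the same pair of genes between libraries and say nothing of which gene is the more abundant, as gene length was not used.

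**Figure D4:**
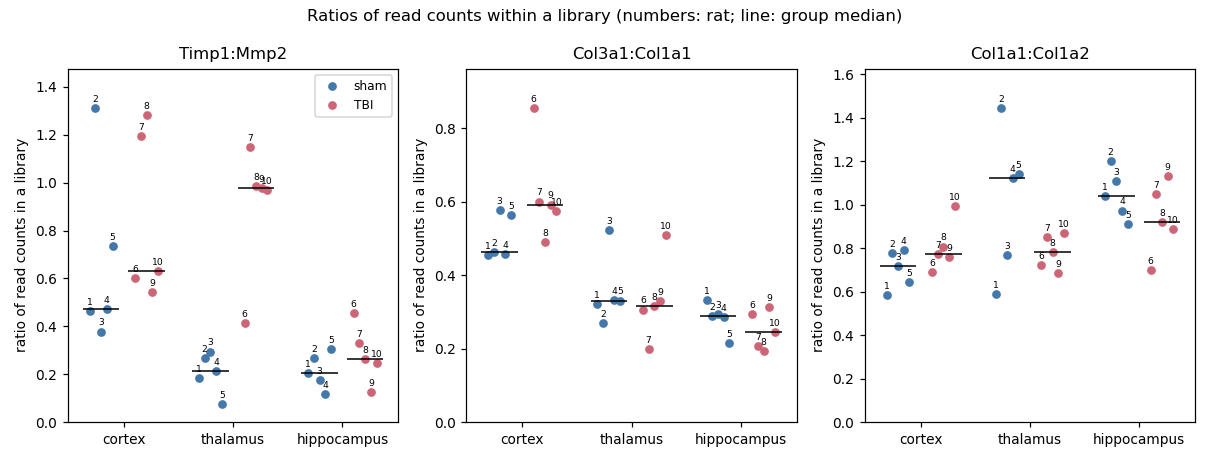
Ratio of the read counts of 2 genes within each library (vertical axis, starting at 0) by area, with sham rats in blue, TBI rats in red, the rat's number above each point and a line at the group median. The Timp1 to Mmp2 ratio of the thalamus is the one panel and area with the groups apart, at 0.0756 to 0.295 in sham and 0.415 to 1.15 in TBI rats.

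The collagens varied together across libraries. After each area's mean was taken away, the levels of Col1a1 and Col1a2 over the 30 libraries had a Pearson's r of 0.972, Col1a1 and Col3a1 one of 0.952, and Col1a2 and Col3a1 one of 0.933. Fn1 followed the collagens at 0.754 to 0.791, Mmp2 at 0.622 to 0.671 and Timp1 at 0.514 to 0.572. These values describe libraries that share rats, areas and the injury, and carry no test. The genes outside the 6 whose pattern was most like their mean, of 15998 genes, were ENSRNOG00000003120 (r = 0.943) and ENSRNOG00000025001 (r = 0.937).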

How the data were processed

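The authors aligned reads to the Ensembl RN5 rat genome (Rnor_5.0) with STAR and deposited 1 table of raw counts per area, whole reads per gene and library; the counting program and its use of strand are not given in the sources used here. Groups came from the labels. The genes and lists were chosen with earlier results of these data known. Lists of other matrix genes and of cell type markers were not used, because 0 identifiers could be paired with symbols, and the tissue labels were not checked against markers for the same reason. Col1a1 overlaps Sgca in GRCr8, so reads of the pair could not be told apart either.

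Counts were tested with edgeR 4.0.16 in R 4.3.3 (quasi-likelihood test with robust fits, TMM, filter at a minimum count of 10 and a minimum total of 15, Benjamini-Hochberg adjustment over all genes of an area, threshold 0.05). Standard errors were taken from the F statistic, and intervals are at 95%. DESeq2 1.42.0, limma 3.58.1 with library weights, other size factors, no filter, each rat left out and 1 fit over areas were alternatives. Log2 CPM for the permutation tests, over 252 arrangements, used a prior count of 3, or 0.5 as an alternative. The methods were also run on simulated counts drawn independently for each library, so effects of single rats were not simulated. The outcome is not reported here and lends no support to the calls. All 6 genes are named by rule. Likeness was the correlation with the mean of their log2 CPM profiles, each standardised over the 30 libraries after its area means were taken away. The same 10 rats gave all areas, but the main fits between areas, whose errors and p-values are printed above, did not pair libraries by rat. The rat as a block was run as an alternative. Deviations of libraries of 1 rat correlated at 0.0579, 0.122 and 0.0384 on average in the 3 pairs of areas. No 2 libraries of a group agreed within sampling noise (lowest chi-square per degree of freedom 14.2).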

Additional observations from a re-analysis of the deposited data

Results flagged for a closer look

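The Mmp2 level of sham rat 1 in the thalamus, 13.8 CPM, stood far from the other sham rats, of which the nearest was at 4.97 CPM. Its gap to the nearest library was 0.719 of the group's range, above Dixon's critical value of 0.71 for 5 samples. Of the 36 groups tested this was the 1 that passed, where chance gives about 5%.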

How the results depend on the processing

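The count of genes called in cortex was 1 with edgeR, 4 with DESeq2, 4 with limma and library weights, 2 in 1 fit over all areas, and 1 to 6 with a rat left out. In thalamus it was 0 to 2 with a rat left out and 3 without rats 1 and 6, added after seeing the data, while calls over all thalamic genes ran from 0 without rat 3, 5, 7 or 8 to 2421 without rat 6 and were 2089 without rats 1 and 6. In hippocampus it was 0 under every alternative run, including the 7 libraries of 1 flow cell, added after seeing the data (Timp1 1.04). Between cortex and thalamus in sham rats it was 2 to 5 with a rat left out, and for the interaction of thalamus and hippocampus 0 to 1.

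Log2 fold changes changed sign with a rat left out for thalamic Col1a1 (-0.0250 to 1.77), Col1a2 (-0.18 to 2.31), Col3a1 (-0.15 to 1.61) and Mmp2 (-0.0144 to 0.69), and for hippocampal Col3a1 (-0.0344 to 0.24) and Fn1 (-0.16 to 0.0557). Pairs of sham rats left out of the hippocampus gave Col3a1 -0.13 (rats 2 and 5) and -0.0762 (rats 4 and 5), and Fn1 0.12, 0.0720 and 0.0856 (rat 1 with rat 2, 3 or 4). Between sham areas the sign changed for Mmp2 from cortex to thalamus (-0.0852 to 0.60) and, from thalamus to hippocampus, for Col1a1 (-1.43 to 0.32), Col1a2 (-2.02 to 0.41), Col3a1 (-1.56 to 0.0548), Fn1 (-0.0131 to 0.21), Timp1 (-0.34 to 0.22) and Mmp2 (-0.43 to 0.20). None of these genes was called in those contrasts, except thalamic Col1a2 without rat 1 and thalamic Col1a2 and Mmp2 without rats 1 and 6, and the cause was not tested.

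With the rat as a block the interaction counts were 0, 0 and 0 and the sham counts between areas 3, 5 and 0, so no call changed with the pairing. Low counts limit Timp1, with 7 to 35 reads in the sham hippocampus.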
